A study of Homo sapiens with 6 samples.

Results

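Exon peaks of N6-methyladenosine (m6A) that run across splice junctions were described in Kasumi-1 cells, a line from human acute myeloid leukaemia with a RUNX1-RUNX1T1 fusion gene. A peak was taken when the authors annotated it to an exon, when that exon belonged to the gene the peak was assigned to, and when the peak consisted of 2 or more blocks. A block is a stretch of exon, and the gap to the next block is in general a spliced intron, although in 13 peaks of the first list and 4 of the second every gap was under 20 bases, too short for an ordinary intron. By this rule 3212 of the 42634 peaks called in immunoprecipitated (IP) over input RNA were taken, in 2691 genes. In the list of peaks tested between treatments, 1411 of 19983 were taken, in 1266 genes, and 1031 genes had such a peak in both lists.

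All 6 libraries came from wild-type Kasumi-1 cells kept for 24 hours in 100 uM CoCl2 with 10 nM echinomycin. CoCl2 mimics low oxygen by blocking the enzymes that mark hypoxia-inducible factors (HIF) for destruction, and echinomycin binds DNA and keeps HIF off its sites. There were 3 input and 3 IP libraries of poly(A) RNA that had been fragmented and, for the IP, pulled down with an antibody against m6A. The second list compares this combined treatment with CoCl2 alone. Libraries of cells given CoCl2 alone were not analysed here. Each peak carries 1 value over all replicates, so no spread between replicates and no test of a single peak can be given beyond the authors' own false discovery rate (FDR), and the read depth behind a peak is unknown.

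m6A is the most abundant internal modification of messenger RNA. The METTL3-METTL14 complex writes it, FTO and ALKBH5 remove it, and proteins such as the YTH family bind it and alter the splicing, translation or decay of the transcript. On spliced RNA, exon junction complexes sit just upstream of each junction and keep the writer away from nearby bases, so that m6A gathers in long internal exons, in last exons and around stop codons. Chains of several short exons are the part of a transcript where little m6A is usually found.

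The myeloid label was set against marker genes by input level, in fragments per kilobase and library size (FPKM). Of 10 myeloid markers 7 had a mean of 1 FPKM or more, and their sum lay between 179 and 196 FPKM in the 3 inputs. MPO, the peroxidase of myeloid granules, stood at 56.2 FPKM ± 2.74 (SD, n = 3), and KIT, the stem cell factor receptor, at 40.4 ± 1.87. ELANE was at or near 0, and AZU1 and CSF1R were below 1 FPKM. Of 6 lymphoid markers 2 reached 1 FPKM: CD3D, a chain of the T cell receptor complex, with 32.1 ± 2.30, and CD79A with 5.03 ± 0.60. CD2 was listed at 0 in all 3 inputs, and CD3E and MS4A1 were below 1 FPKM. Of the 4 erythroid and megakaryocytic markers found in the table, EPOR (5.39 ± 0.26) and ITGA2B (1.48 ± 0.20) reached 1 FPKM.

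The bases shown here are the starts of 4 noncoding transcripts whose peak covers the first 50 transcribed bases, because these are the stretches of the junction-spanning peaks that RefSeq start-site sequences hold. The core GGAC, the most frequent form of the m6A consensus, is in capitals, and 30 bases are given, 5′ to 3′ on the transcribed strand, from RefSeq on GRCh38.p14. The genes were chosen after their values were seen.
PCAT6, bases 1 to 30: agaggccGGACctgggcaaccccagcctgg
ZNF197-AS1, bases 1 to 30: agagttGGACatttctattttgatttgcat
LRRC8C-DT, bases 21 to 50: cgccggccgccgggggccttctccaGGACc
LINC01679, bases 21 to 50: ggaagagataccccgtGGACatgtttccct
PCAT6, a noncoding transcript, had a peak of 2 blocks (chr1:202810954-202811632, coordinates as the authors' tables give them) with a fold enrichment of 4.82. LRRC8C-DT had 5.82 (chr1:89631810-89632916). ZNF197-AS1, an antisense transcript whose reads are uncertain, had 5.59 (chr3:44617483-44624797). Its peak in the authors' deposited table of differences had a log2 fold change of -2.19. The peak of LINC01679 in that table had -0.70 (chr21:43359188-43362349).
In all, 41 peaks of the first list covered such a start, 40 of them in genes that are not protein-coding, and 7 (17.1%) had GGAC, searched on the transcribed strand only, in the 50 bases. Among all 35116 RefSeq start windows of the same length 18.9% had it. These letters were thus no more frequent in the covered starts than in starts at large, and only this window was searched.

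The peaks were short on the transcript and long on the genome. Their blocks summed to a median of 360 bases, with a middle range of 211 to 599, whereas from first to last base they spanned a median of 2686.5. Of the 3212 peaks, 2275 (70.8%) had 2 blocks and 937 had 3 or more, up to 11. The 4641 gaps between blocks had a median of 1418 bases and reached 230588, in PRELID2 on chromosome 5 (chr5:145473309-145704225), a gene of a mitochondrial lipid transfer family, whose peak joined blocks with a sum of 329 bases. In peaks of 3 or more blocks, an inner block is in general an exon covered from end to end. There were 1429 inner blocks with a median of 124 bases and a middle range of 84 to 197, the length of ordinary inner exons. Some may not be whole exons, as a peak of SPTBN1 held an inner block of 2 bases.

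In peaks of 2 blocks the longest block holds the larger part of the bases by construction. Over all 3212 peaks the longest block made up a median of 73.3% of the bases, and in 1227 peaks over 80%. The shortest block had a median of 49 bases. It was under 10 bases in 309 peaks (9.62%) and a single base in 27. Of all gaps 19 were under 20 bases. In protein-coding genes 1586 of 1895 peaks (83.7%) were annotated to an exon that was neither the first nor the last. These transcripts had a median of 13 exons, against 3 in the other genes.

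RefSeq named the type of gene for 2614 of the 3212 peaks (81.4%). There were 1895 peaks in protein-coding genes, 454 in long noncoding RNA (lncRNA) genes, 260 in pseudogenes, 5 in other kinds and 598 in loci with no match, most of them known by a clone name. Of the peaks, 1731 lay in genes with a mean input of 1 FPKM or more and 118 in genes with no FPKM value. Genes with such a peak had a median input of 1.42 FPKM (SD of the medians of the 3 inputs 0.08), below the 2.16 of all genes with a peak. The protein-coding ones stood at 3.60.

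Fold enrichment, IP over input, is the authors' own value for each peak. Its median over the 3212 peaks was 4.79 with a middle range of 2.65 to 7.68, and 2786 (86.7%, exact 95% interval 85.5 to 87.9) had an FDR under 0.05, against 87.4% of all listed peaks. Exon peaks of 1 block had a median of 4.66, peaks of 2 or more blocks in the 3′ untranslated region (UTR) 5.24, those in the 5′ UTR 4.84, and all peaks 4.53. In protein-coding genes the median was 3.62, against 4.19 for all peaks of such genes, and in the other genes 6.52 against 5.89. Within protein-coding genes the junction-spanning exon peaks had 2.48, 3.35 and 5.91 at longest blocks of at most 200, 201 to 400 and over 400 bases, and all peaks 2.59, 3.88 and 6.52. Enrichment was lower in genes of high input: the median fell to 2.83 in genes with 5 FPKM or more.

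Within the class, enrichment rose with the longest block. In protein-coding genes the median was 2.10 where the longest block had at most 100 bases, 2.64 for 101 to 200 bases and 2.94 for 201 to 300. It was 4.44 for 301 to 500 bases, 5.87 for 501 to 1000 and 6.82 above 1000. The limits of these classes were chosen after the values were seen. Of the peaks at most 100 bases long in their longest block 75% had an FDR under 0.05, and all 95 peaks above 1000 did. By number of blocks, over all genes, the medians were 4.66 for 2, 5.08 for 3, 5.59 for 4, 3.30 for 5 and 3.46 for 6 or more, with no steady order. Genes with the most blocks also had more input RNA: the median was 1.19 FPKM for peaks of 2 blocks and 7.50 for 6 or more, and its part in these medians was not tested.

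**Figure D1:**
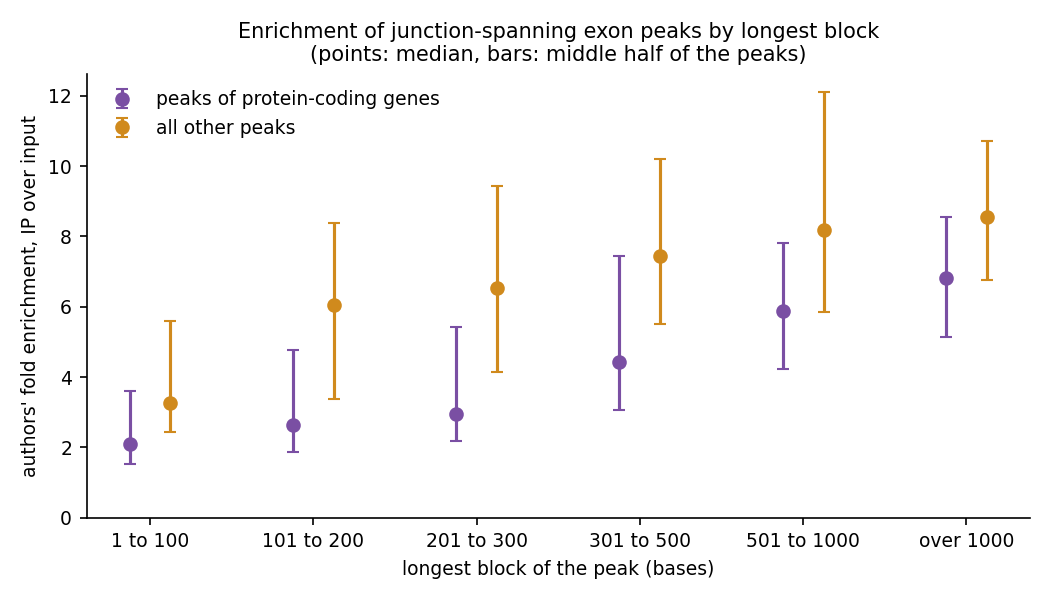
Median fold enrichment (IP over input, vertical axis) of the junction-spanning exon peaks by the length of their longest block in bases (horizontal axis), with bars for the middle range of peaks, in protein-coding genes and in all other genes. The median of protein-coding genes goes from 2.10 to 6.82, and that of the other genes from 3.26 to 8.55.

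Input level and length were each tied to enrichment. In protein-coding genes of 5 to 20 FPKM, the median enrichment was 1.77 for a longest block of at most 200 bases, 2.51 for 201 to 400 and 4.96 above 400. The order was the same in genes under 1 FPKM (4.54, 6.52 and 8.38) and in those of 20 FPKM or more (1.53, 2.23 and 4.81). Peaks of genes that are not protein-coding were more enriched at every length, with 3.26 for at most 100 bases and 8.55 above 1000, and their input was lower, with a median of 0.44 FPKM against 3.64. Exon peaks of 1 block and UTR peaks of 2 or more blocks showed the same order in protein-coding genes: 2.55, 3.73 and 5.57 for 1-block exon peaks, 2.48, 3.86 and 6.66 in 3′ UTRs. The relation to length is therefore not particular to peaks that cross junctions.

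Among peaks with an FDR under 0.05 in genes of 5 FPKM or more, NSF had the highest enrichment. Its peak (chr17:46643196-46674530, exon 8 of 21, 2 blocks) had 27.0, at 17.2, 15.8 and 17.7 FPKM in inputs 1, 2 and 3. A peak of AC013287, at 0 FPKM in all 3 inputs, had the same enrichment and the same log10 FDR of -6.28. The input level of a gene thus does not give the reads behind its peak. NSF is the ATPase that recycles membrane fusion complexes, and it has a near-identical partial copy on the same chromosome, so its reads are uncertain. DNM2, which pinches vesicles off membranes, followed with 25.6 (chr19:10755219-10759693). TRA2A, a splicing regulator that controls its own transcript through a poison exon, had 24.2 (chr7:23505733-23506432, exon 6 of 8), at 24.3, 27.0 and 25.9 FPKM. PPP1R12C, a myosin phosphatase subunit, had 24.1 (chr19:55096918-55098998).
The next were the pseudogene IKBKGP1 with 22.4, uncertain because of its parent IKBKG, then CCDC69 with 17.7, and TOR1A, an ATPase of the endoplasmic reticulum, with 16.8. KIF3B, a kinesin motor, had 15.4 over 4 blocks of 1110 bases in sum, NCOA2, a nuclear receptor coactivator, 14.2, and CDC42SE2 14.0. The 3 inputs of these genes lay close together, with an SD of at most 1.38 FPKM (TRA2A). This holds for the whole gene and says nothing of the input at the peak. The log10 FDR of CDC42SE2 was -2.67 and that of IKBKGP1 -4.97.

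A few peaks stood out in shape. KIF20B, a mitotic kinesin, had the most blocks, 11, with a sum of 2334 bases and an enrichment of 8.20 (chr10:89726457-89754669). CENPE, the kinesin of kinetochores, and SMC3, a ring subunit of cohesin, had 9 blocks each. No block of either exceeded 291 bases (CENPE) or 214 (SMC3), and their enrichment was 4.37 and 2.66. CENPF, a kinetochore protein, had the longest sum, 3712 bases, of which 1 exon gave 2844, with 5.38 (chr1:214642932-214652945). CELSR2, an adhesion receptor, had 3328 bases and 5.13, CASP8AP2, a histone gene regulator, 2966 bases and 4.81, and SCAF1, which binds the tail of RNA polymerase II, 2757 bases and 6.82. The antisense transcript RTCA-AS1, whose reads are uncertain, had an enrichment of 132 over 2936 bases at 1.49 FPKM. PCNT, a scaffold of the centrosome, carried 7 separate peaks, the most of any named gene, with enrichments from 1.88 to 6.68. The 3 highest of these had longest blocks of 771, 291 and 511 bases, and the 3 lowest 153, 233 and 106.

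After the combined treatment, 408 of the 1411 tested peaks (28.9%) were higher than after CoCl2 alone and 621 (44.0%) lower at the authors' FDR under 0.05. Of all 19983 tested peaks 23.1% were higher and 45.8% lower. By the authors' deposited table, the median change on the log2 scale was -0.39 for these peaks and -0.43 for all. The share called lower was thus near that of all peaks and the share called higher somewhat above it. Of the changed peaks 60.3% were lower (exact interval over peaks 57.3 to 63.4), against 65.9% of changed exon peaks of 1 block, 71.2% in 3′ UTRs and 63.7% in 5′ UTRs of 2 or more blocks. In genes of 5 FPKM or more, an alternative chosen after seeing the data, 278 were higher and 230 lower, and the median in the authors' deposited table turned to 0.26. In peaks of 5 or more blocks 36 were higher and 28 lower, with a median of 0.38 there. Most changes were small: at a limit of 2-fold, 92 were higher and 162 lower. In bulk RNA, a lower value per cell and fewer cells that carry the mark cannot be told apart.

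The sign of the change was the ratio of combined treatment over CoCl2, as the order of names in the table gives it, and was set against the first list, which holds peaks of treated cells. Of 62 tested peaks with a log2 fold change under -2 in the authors' deposited table, 50% overlapped a listed peak on the same strand, and of 70 at 2 or above, 98.6% did. Of all 1411, 1306 (92.6%) overlapped a listed peak, and 1086 (77.0%) a junction-spanning exon peak, whereas 1100 (34.2%) of the 3212 overlapped a tested one.

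The direction followed the longest block. In protein-coding genes, peaks with a longest block of at most 100 bases were higher in 36 cases and lower in 2, with a median of 0.90 on the log2 scale of the authors' deposited table. From 101 to 200 bases 144 were higher and 24 lower (median 0.61), and from 201 to 300 bases 89 and 28 (0.55). From 301 to 500 bases the counts were near even, 55 and 69 (-0.30). From 501 to 1000 bases 28 were higher and 164 lower (-0.54), and above 1000 bases 8 and 88 (-0.55). The share of lower peaks among the changed ones thus went from 5.26% to 91.7%.

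**Figure D2:**
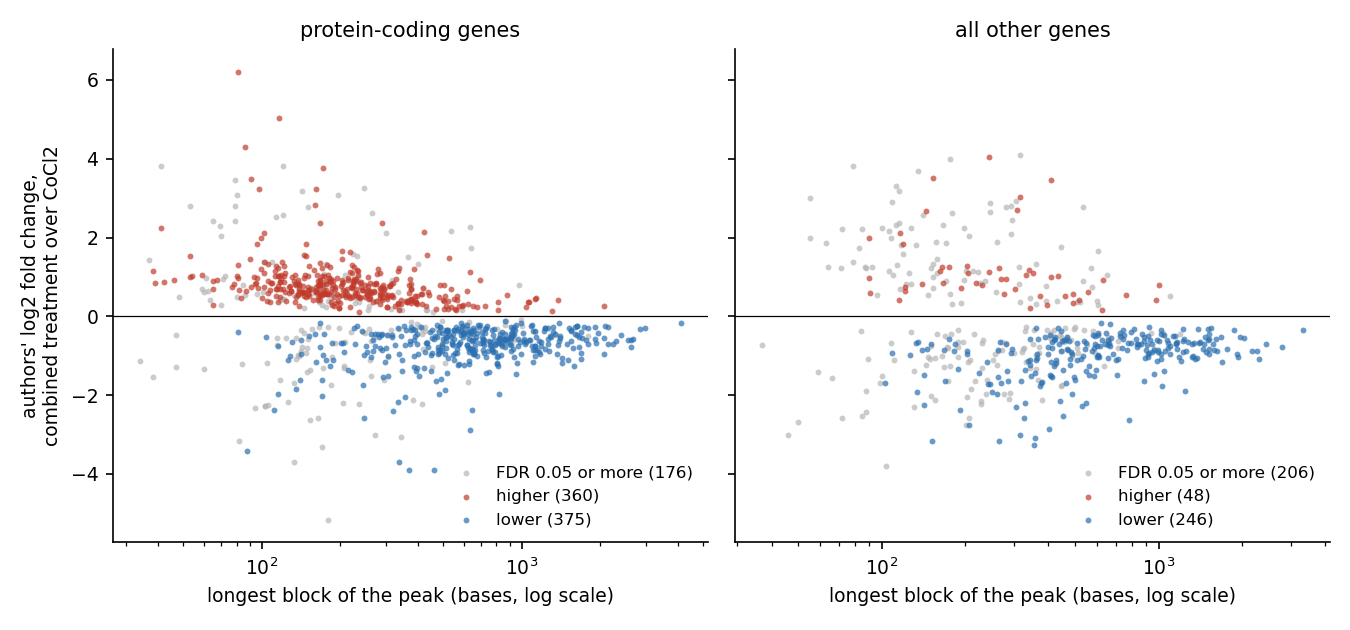
Log2 fold change of each junction-spanning exon peak (combined treatment over CoCl2, authors' values, vertical axis) against the length of its longest block in bases on a log scale (horizontal axis), in protein-coding genes on the left and all other genes on the right. Higher peaks (red, 360 and 48) crowd at short blocks in protein-coding genes, lower peaks (blue, 375 and 246) at long ones, and grey peaks did not pass the FDR.

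At like summed lengths the direction still differed by the longest block. Among protein-coding peaks with 401 to 800 bases in sum, all 20 changed peaks built of blocks of at most 200 bases were higher, 57 were higher and 35 lower with a longest block of 201 to 400, and 31 were higher and 90 lower with one above 400. The medians in the authors' deposited table were 0.81, 0.37 and -0.46. The share of lower peaks rose with the longest block at each level of input. In genes of 20 FPKM or more, 39 of 41 changed peaks of at most 200 bases in the longest block were higher, and 26 of 36 above 400 bases were lower. In genes of 5 to 20 FPKM the counts were 93 of 98 and 125 of 150, and in genes of 1 to 5 FPKM 42 of 52 and 101 of 112. In genes under 1 FPKM most changed peaks were lower at every length, 8 of 13 at up to 200 bases, 11 of 13 at 201 to 400 and 32 of 35 above 400.
Enrichment in the overlapping peak of treated cells moved along with length. Where it was under 3, 233 of 289 changed peaks were higher, and where it was 6 or more, 135 of 172 were lower. Within a narrow range of 3 to 6, 18 of 22 changed peaks with blocks of at most 200 bases were higher and 140 of 164 above 400 bases lower. Which of these measures leads was not tested.

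Other classes of peak divided in the same way. With a longest block of at most 200 bases in protein-coding genes, 12.6% of changed junction-spanning exon peaks were lower, 23.4% of 1-block exon peaks, 23.9% of 3′ UTR and 19.1% of 5′ UTR peaks of 2 or more blocks. Above 400 bases the shares were 85.4%, 82.2%, 86.1% and 87.6%. Peaks are not independent samples, and no test of the difference between classes was made.

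**Figure D3:**
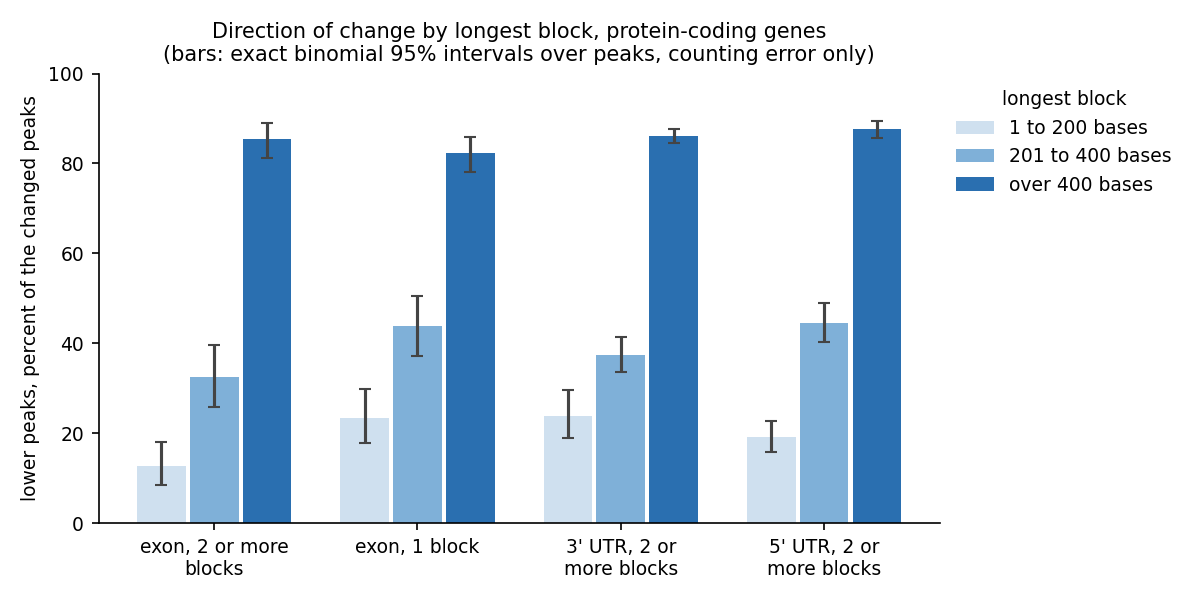
Lower peaks as a percent of the changed peaks (vertical axis) in 4 classes of peak of protein-coding genes (horizontal axis), by the length of the longest block, with exact binomial 95% intervals over peaks that cover counting error only. The junction-spanning exon peaks go from 12.6% to 85.4%, and the other 3 classes rise in the same order.

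The number of blocks showed a weaker order. By the authors' deposited table, in all genes the median change on the log2 scale was -0.46 for 2 blocks, -0.35 for 3, -0.36 for 4, 0.41 for 5 and 0.36 for 6 or more. The share of lower peaks among the changed ones was 62.6%, 60.7%, 55.3%, 43.2% and 45.0%. The input level rose alongside, from a median of 2.81 FPKM to 8.59, and its part was not tested.

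**Figure D4:**
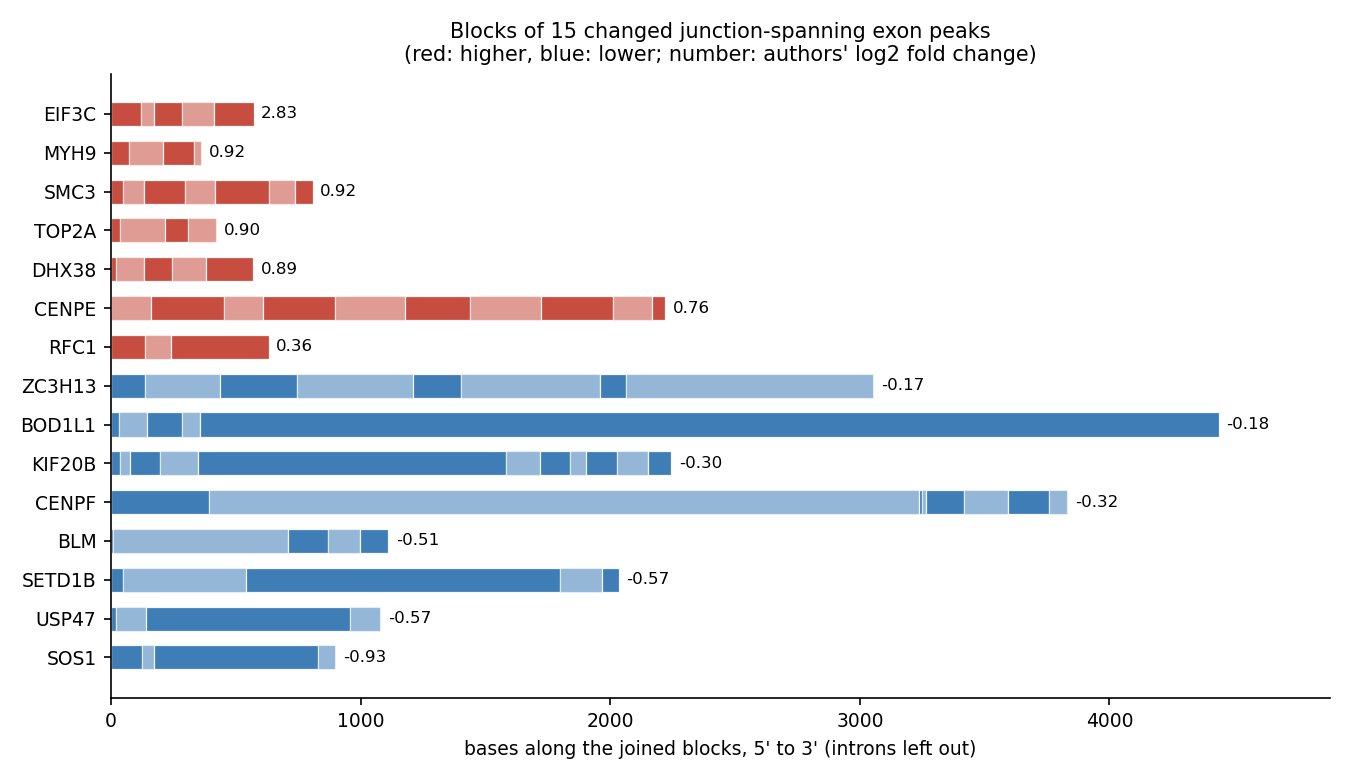
Blocks of 15 changed junction-spanning exon peaks drawn to scale along the joined transcript, 5′ to 3′, with introns left out (horizontal axis, bases), 1 gene per line, neighbouring blocks in alternating shades, red for higher and blue for lower, and the authors' log2 fold change at the end. The genes were chosen after their values were seen. Higher peaks are chains of exons of at most 392 bases, and each lower one holds an exon of over 500 bases.

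Single transcripts held both directions. Of 96 genes with 2 or more changed peaks of this kind, 35 had only higher ones, 39 only lower ones and 22 both. In 21 of these 22 the lower peak had the longer longest block, with medians of 726 bases in the lower and 191.5 in the higher peak, the exception being the helicase gene DDX42. KLHL22, an adaptor of a ubiquitin ligase, had a peak at chr22:20491939-20493182 with a longest block of 115 bases and a log2 fold change of 1.23 in the authors' deposited table, and another at chr22:20464948-20471451 with 676 bases and -1.01. Its input was 6.89, 7.41 and 7.10 FPKM. WNK1, a kinase of ion transport, had 1.53 at a peak with a longest block of 53 bases and -0.64 at one of 511 in the authors' deposited table. PDCD11, a ribosome assembly factor, had 1.04 at 180 bases and -0.99 at 542 in the authors' deposited table. BOD1L1, which protects stalled replication forks, had 1.31 at 81 bases, -0.49 at 917 and -0.18 at 4084 in the authors' deposited table. AKAP9, a kinase anchor of the centrosome and Golgi, had 1.03 at 171 bases and -0.52 at 669, and BAZ1A, a chromatin remodelling subunit, 0.79 at 167 and -0.64 at 372 in the authors' deposited table. In the authors' deposited table ZNF638 had 1.13 at 219 bases and -0.30 at 1225. PPP1R12C had 0.52 at 167 bases and -0.91 at 207 in the authors' deposited table, where the blocks hardly differed in length and the enrichment was 3.88 and 24.1. Both peaks of a pair share the input level of their gene.

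The same gene was also read at its 3′ UTR. Of 338 genes with a changed junction-spanning exon peak and a changed 3′ UTR peak, taking the peak of lowest p in each, 134 had both lower, 77 both higher, 83 a higher exon peak with a lower 3′ UTR peak and 44 the reverse. Where signs were opposite (127 genes), the lower peak had the longer longest block in 111. In the 83 genes the medians were 203 bases in the exon peak and 663 in the 3′ UTR, and in the 44 genes 660.5 and 332.5. The widest gap was in DQX1, a little studied helicase-like gene, with 2.14 in the exon and -2.63 in the 3′ UTR in the authors' deposited table, at 0.62 FPKM. There the longest blocks were 421 and 298 bases, against the general order. TBC1D1, a Rab GTPase activator, had 0.47 and -3.58 in the authors' deposited table, the latter with a log10 FDR of -1.36. Its longest blocks were 238 and 91 bases, also against the general order. SCYL3 had 1.45 and -1.23 in the authors' deposited table. KDM8, a JmjC-domain enzyme at 0.25 FPKM, had 1.56 and -0.99, and STAMBP, a deubiquitinase of endosomes, 0.49 and -1.82 in the authors' deposited table. In the other direction CERK, which makes ceramide-1-phosphate, had -1.53 in the exon and 0.89 in the 3′ UTR, ARHGEF12 -0.53 and 1.64, and BAHCC1, a chromatin reader, -1.10 and 1.06 in the authors' deposited table.

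Of 26 lists of genes, chosen with earlier results of these data known, 19 had a tested peak of this kind, with 86 peaks in 66 genes. Of the 86, 45 (52.3%) were higher and 38 (44.2%) lower. Of all 911 tested junction-spanning exon peaks of protein-coding genes 39.5% were higher and 41.2% lower. All tested peaks, of every class and type of gene, had 23.1% and 45.8%. With a longest block of at most 200 bases 19 were higher and 1 lower, and above 400 bases 5 and 33. Direction within the lists thus went with the longest block as well, and no list is called particular here. The 7 lists with none were glycolysis, the unfolded protein and integrated stress response, blood transcription factors, the respiratory chain and the 3 lists of cell type markers.

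**Figure D5:**
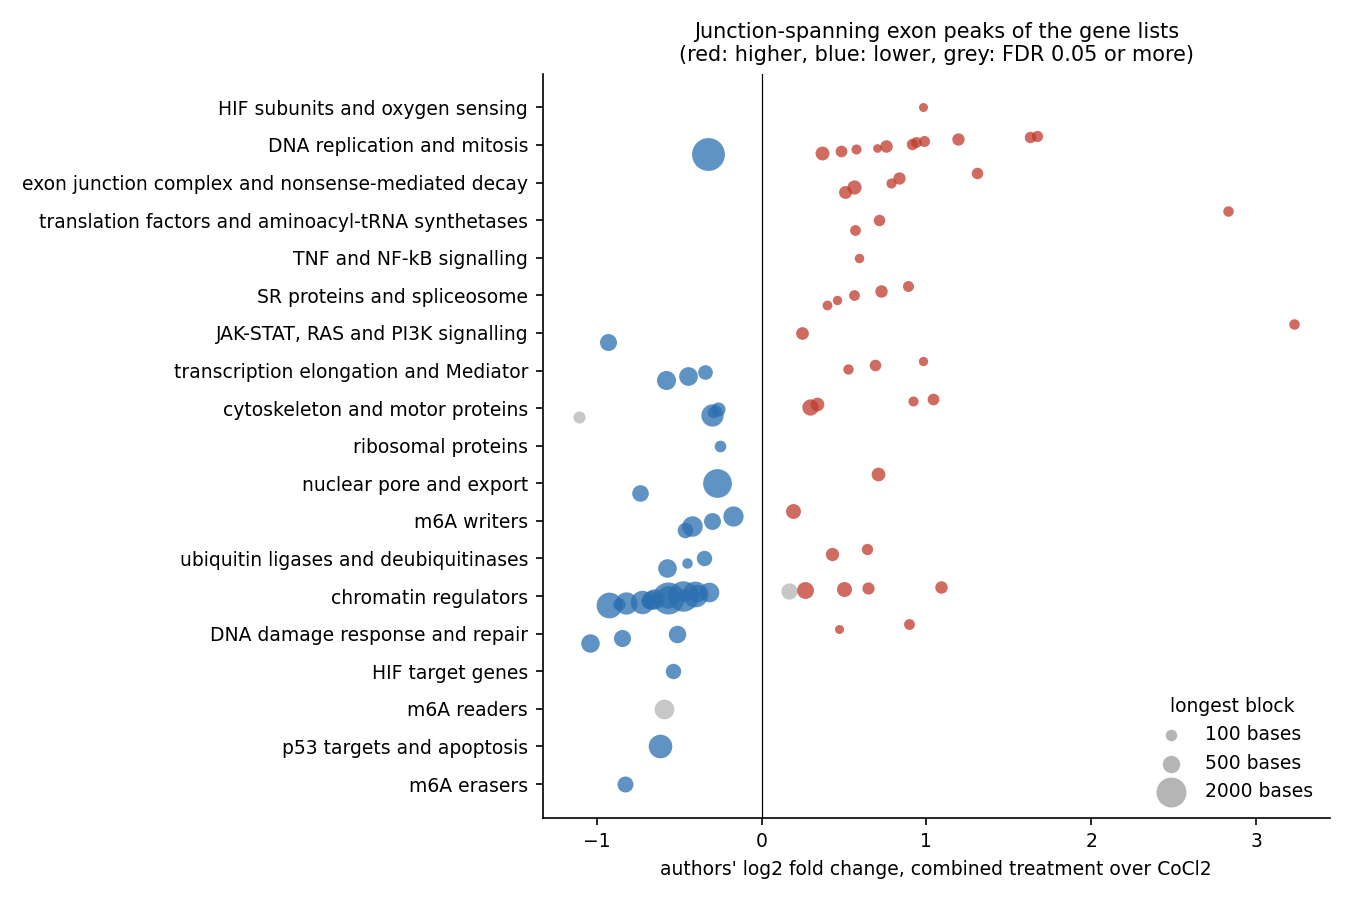
Log2 fold change (combined treatment over CoCl2, authors' values, horizontal axis) of each tested junction-spanning exon peak in the 19 gene lists (vertical axis), with the area of a point growing with its longest block, red for higher, blue for lower and grey for peaks that did not pass the FDR. Small points lie to the right of 0 and large ones to the left, with few exceptions.

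Genes that make, bind and erase m6A were themselves marked. Of 9 writer genes, 7 had a tested peak and 3 a tested peak of this kind. All 3 had a lower one, CBLL1 narrowly with a log10 FDR of -1.31. The longest blocks of these writer peaks were above 400 bases. Of all 335 changed junction-spanning exon peaks of that length in protein-coding genes, 286 were lower. ZC3H13, which anchors the writer complex in the nucleus, had -0.46 and -0.17, CBLL1, its ubiquitin ligase-like partner, -0.30, and VIRMA, the scaffold that guides the mark towards 3′ ends, -0.42 at a longest block of 1014 bases and 0.19 at one of 470 in the authors' deposited table. Their peaks were enriched 4.64 to 6.45-fold. WTAP, the adaptor of METTL3, had a listed peak of 1.46 with a longest block of 84 bases but no tested peak of this kind. The eraser FTO had -0.83 in the authors' deposited table at 0.70 FPKM. The reader IGF2BP3 had -0.59 in the authors' deposited table and did not pass the FDR. YTHDC1, the nuclear reader, had a listed peak of 4.34 and PRRC2A one of 5.80.

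In the list of SR proteins and spliceosome parts 25 genes had a tested peak and 5 a tested peak of this kind. All 5 had a higher one and none a lower one. Among all junction-spanning exon peaks of protein-coding genes, 180 were higher and 26 lower with a longest block of at most 200 bases. With one of 201 to 400 bases these were 131 and 63. The helicases DHX38 (0.89) and DDX46 (0.56), PRPF3 of the U4/U6 particle (0.73), SRSF11 (0.40) and TRA2A (0.46, chr7:23507436-23512913) stood so in the authors' deposited table. Their longest blocks were 100 to 285 bases, and the listed peaks at DHX38, DDX46, PRPF3 and SRSF11 were enriched 1.73 to 3.16-fold. The changed TRA2A peak was not the listed one of 24.2. Among genes of the exon junction complex and of nonsense-mediated decay, 3 of 3 with a tested peak of this kind had higher peaks. The median longest block there was 223 bases. ACIN1, an exon junction component, had 0.56, SMG1, the kinase of UPF1, 1.31 and 0.51, and UPF2 0.78 and 0.83 in the authors' deposited table. SMG1 has near-identical partial copies on its chromosome and is uncertain. Of the translation factors 3 of 3 with a tested peak of this kind were higher, with a median longest block of 181 bases. The counts of all junction-spanning exon peaks by length, given above, are the background for both of these lists too. EIF3C had 2.83 (chr16:28714329-28720658, 5 blocks, longest 160 bases) in the authors' deposited table and is uncertain through its copy EIF3CL. EIF3A, also of initiation complex eIF3, had 0.71 and EIF4G3, a scaffold of initiation, 0.57 in the authors' deposited table.

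Genes of replication and mitosis had 11 higher peaks and 1 lower one in 5 genes, whose median longest block was 214 bases. Among all junction-spanning exon peaks of protein-coding genes with a longest block of 201 to 400 bases, 131 were higher and 63 lower. With one of at most 200 bases these were 180 and 26. SMC3 had 0.92 over 7 blocks and 0.94 over 3 (chr10:110582050-110589964 and chr10:110600450-110601820) in the authors' deposited table, at 14.8, 14.7 and 13.6 FPKM. RFC1, the clamp loader's large subunit, had 1.67, 0.57 and 0.36, the last at its longest block of 392 bases, and SMC2 of condensin 0.98 and 0.48 in the authors' deposited table. CENPE had 0.76 over 11 blocks, 1.63 over 4 and 1.19 over 2 in the authors' deposited table. CENPF was the gene with both: 0.70 at a peak whose longest block had 65 bases, and -0.32 at the one that holds its exon of 2844 bases, in the authors' deposited table. The higher CENPF peak passed the FDR by little, with a log10 FDR of -1.37. A separate list, cytoskeleton and motor proteins, had 8 tested peaks of this kind, 4 higher and 3 lower, with a median longest block of 248 bases. In it MYH9, the non-muscle myosin heavy chain, had 0.92 over 4 blocks of at most 138 bases in the authors' deposited table. MACF1 had 1.04 at 234 bases and -0.267 at 411, and SPTBN1 0.335 at 375 and 0.297 at 594 in the authors' deposited table. DST (-1.11) did not pass the FDR. KIF20B of the same list, with an exon of 1231 bases among its 11 blocks, had -0.30 in the authors' deposited table. KIF11, the spindle kinesin and also of that list, was lower by the authors' deposited table (-0.30) although its longest block had 226 bases.

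Chromatin regulators went the other way. Of 13 genes with a tested peak of this kind, 10 had lower peaks and 3 higher ones, 1 of which had both. Of the peaks themselves 14 were lower and 4 higher, and their median longest block was 923 bases. Among all junction-spanning exon peaks of protein-coding genes with a longest block above 400 bases, 286 were lower and 49 higher. KMT2D, a histone H3 lysine 4 methyltransferase, had -0.57, -0.65 and -0.67 at peaks with longest blocks of 2692, 983 and 837 bases in the authors' deposited table, at 16.7, 17.0 and 15.3 FPKM. ASXL2, a Polycomb partner, had -0.47 at 2415 bases, SETD1B -0.82 and -0.57 at 1233 and 1260, NSD1, a lysine 36 methyltransferase, -0.72 at 1375, and KMT2A -0.32 at 923 in the authors' deposited table. Lower peaks with shorter blocks were those of NCOR1 (-0.86 at 290 bases) and TET3 (-0.47 at 303) in the authors' deposited table, also named after their values were seen. The 3 genes with a higher peak, named after their values were seen, were DNMT3A, a DNA methyltransferase often mutated in leukaemia (1.09 at 286 bases), KDM5A, a demethylase (0.50 at 479 bases and 0.65 at 271), and KMT2C (0.26 at 648 bases, beside -0.41 at 1692 and -0.39 at 706) in the authors' deposited table.

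In DNA repair, 2 genes had a higher peak and 3 a lower one. Of all 911 tested junction-spanning exon peaks of protein-coding genes, 39.5% were higher and 41.2% lower. With a longest block of at most 200 bases 180 were higher and 26 lower, and above 400 bases 49 and 286. TOP2A, topoisomerase 2 alpha, had 0.90 over 4 blocks of at most 183 bases and TOPBP1 0.47 at 83 in the authors' deposited table. The damage adaptor TP53BP1 had -1.04 at 802 bases, BRCA2 of homologous recombination -0.85 at 663 and the helicase BLM -0.51 at 701 in the authors' deposited table. Elongation and Mediator genes split likewise. SUPT16H (0.98 at 96 bases), SUPT6H (0.53 at 152) and the bromodomain gene BRD3 (0.69 at 230) were higher in the authors' deposited table, and MED13 (-0.58 at 861) and CDK12 (-0.44 at 826 and -0.34 at 451) lower. Of the nuclear pore and export genes, THOC2 had 0.70 at 376 bases, NUP153 -0.74 at 618 and RANBP2 -0.27 at 2146 in the authors' deposited table.

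Of 11 genes of HIF subunits and oxygen sensing with a listed peak, 4 had one of this kind, and of 19 HIF target genes 2. Among p53 targets and apoptosis genes it was 3 of 29, and in TNF and NF-kB signalling 1 of 20. In JAK-STAT, RAS and PI3K signalling it was 3 of 31. Of all 17060 genes with a listed peak, 2691 had one of this kind. EP300, the acetyltransferase that HIF recruits, had 0.98 in the authors' deposited table at a peak with a longest block of 81 bases, and KDM3A, a HIF target that demethylates histone H3, had -0.54 at 512. The listed peaks of EP300 had enrichments of 6.37 and 1.79. VEGFA, EGLN1, CREBBP and HIF1AN had listed peaks (4.63, 1.53, 2.25 and 1.17) but no tested peak of this kind. That of HIF1AN did not pass the FDR. BIRC6, an inhibitor of apoptosis, had -0.61 at 1395 bases, and IKBKB, a kinase of NF-kB activation, 0.59 at 106 in the authors' deposited table. The IKBKB peak passed the FDR narrowly, with a log10 FDR of -1.31. RPTOR, the scaffold of mTORC1, had 3.23 (chr17:80883812-80885057, exon 16 of 22, longest block 161) in the authors' deposited table, at 2.62, 2.92 and 2.54 FPKM. SOS1, which loads RAS with GTP, had -0.93 at 656 bases in the authors' deposited table. Of the ubiquitin genes USP47 (-0.57 at 815 bases), HUWE1 (-0.35 at 514) and UBE3A (-0.45 at 160) were lower and USP8 (0.64 at 209) and USP9X (0.42 at 343) higher in the authors' deposited table. UBE3A passed the FDR narrowly, with a log10 FDR of -1.41.

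The widest changes in genes of 1 FPKM or more were in part at loci whose reads are uncertain. GOLGA8T had 6.21, GOLGA8K 2.12, GOLGA8N 1.99 and GOLGA8H -3.41 in the authors' deposited table, and these genes of chromosome 15 are near-identical copies. NSF had 5.04 (log10 FDR -1.5) and IKBKGP1 3.52 in the authors' deposited table. Of genes with no such copy named, MYH15 had 3.48, KMT5A, the lysine 20 methyltransferase of histone H4, 2.25, and the divergent transcript GARS1-DT 2.12 in the authors' deposited table. MYH15 and KMT5A passed the FDR by little, with a log10 FDR of -1.56 and -1.47, and the KMT5A peak had 61 bases in sum. The lowest were AC099343 (-2.64), the antisense TNKS2-AS1 (-2.58), SPATA5L1 (-2.40), the RNA editing enzyme ADARB1 (-2.37), CNNM3 (-2.17), AC099552 (-2.14), the pseudogenes MSTO2P (-1.93) and TCAM1P (-1.77), and RCSD1 (-1.74) in the authors' deposited table. The reads of TNKS2-AS1, the pseudogenes and the unnamed loci AC099343 and AC099552 are uncertain. CNNM3, MSTO2P and RCSD1 had no overlapping listed peak, and the log10 FDR of RCSD1 was -1.55. Among the changed peaks with the highest input, RPS24, a ribosomal protein at 498, 506 and 497 FPKM, had -0.25, and SNHG29, a snoRNA host at 100.2, 103.5 and 106.4 FPKM, -0.78 at a longest block of 2789 bases in the authors' deposited table. MSN, a linker of membrane and actin, had 0.74, OS9 0.82 and PRKCSH 0.83, both of protein quality control in the endoplasmic reticulum, and HCLS1, a blood cell actin regulator, 0.66 in the authors' deposited table. These 4 had longest blocks of 94 to 276 bases.

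In genes that are not protein-coding, fewer peaks were called higher. Of their 500 tested peaks 9.60% were higher and 49.2% lower, against 23.1% and 45.8% of all tested peaks, and 10.3% and 43.1% of all tested peaks of such genes. Of 173 tested lncRNA peaks 15 were higher and 86 lower, of 105 in pseudogenes 17 and 58, and of 220 in unmatched loci 16 and 100. In protein-coding genes the counts were 360 and 375 of 911. The longest block was 383.5 bases in the median of the former together and 305 in protein-coding genes, and the input was 0.98 and 5.74 FPKM, both of which moved with the direction and were not tested as its source. By length the order was the same in the noncoding and unmatched genes: 13 higher and 19 lower from 101 to 200 bases, 15 and 61 from 301 to 500 and 1 and 67 above 1000.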

How the data were processed

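Poly(A) RNA of Kasumi-1 cells was fragmented and immunoprecipitated for m6A, with 3 input and 3 IP libraries. The submitters' processing notes name fastp, HISAT2, HOMER and ChIPseeker without roles or versions. Which tool called peaks or computed FPKM, the genome build and the gene annotation were not given in the sources used here. Per the file headers, the authors' peak list gives a fold enrichment (ratio) and log10 p-value and FDR columns for each peak, and their deposited score column equals the p-value. The deposited table of differences gives a log2 fold change with log10 p-value and FDR. Input levels are FPKM values as deposited by the authors, and 6 per-sample columns of other samples were not used. Blocks were read from the deposited block sizes and starts. Gene types came from RefSeq (GRCh38.p14), and 1835 of 1867 protein-coding peaks with a RefSeq gene (98.3%) lay within its bounds there.

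Counts, medians and exact binomial intervals were computed in Python 3.11.15 with pandas 2.3.3 and scipy 1.17.1, tested on simulated peaks. The class of peaks and the gene lists were chosen with earlier results of these data known. Named were the 10 most enriched (FDR under 0.05, 5 FPKM or more), the 10 highest and 10 lowest changes (1 FPKM or more), up to 5 genes per list, the extremes of shape, number of peaks and input level, and genes with opposite signs. The replicates are numbered in the labels, which do not say whether they were separate cultures. Alternatives were other FDR, fold, block, FPKM, overlap and replicate choices.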

Additional observations from a re-analysis of the deposited data

How the results depend on the processing

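With 3 or more blocks in place of 2, the rule took 937 peaks of the IP over input list and 477 of the tested list, and 173 were higher and 228 lower. At 2-fold or more 92 were higher and 162 lower. The median fold enrichment of 4.79 became 4.54 for an FDR under 0.05, 5.59 for an enrichment of 2 or more, 3.27 for genes of 1 FPKM or more and 2.83 for 5 or more. The share of lower peaks among changed ones, 60.3%, became 63.8% at 2-fold or more, 56.9% with 3 or more blocks and 55.0% in genes of 1 FPKM or more, and the median change on the log2 scale of the authors' deposited table became -0.30 with 3 or more blocks and -0.28 in genes of 1 FPKM or more. The median input of genes with such a peak lay between 1.35 and 1.46 FPKM when each input was left out in turn, and was 4.86 among genes of 1 FPKM or more. With 5 FPKM or more, chosen after seeing the data, 278 were higher and 230 lower (45.3% lower among the changed), and the median change in the authors' deposited table turned to 0.26. With 5 or more blocks, also chosen after seeing the data, these were 36, 28, 43.8% and 0.38 in the authors' deposited table. The balance of direction thus depends on input level and number of blocks, and the cause was not tested. Other alternatives chosen after seeing the data kept the share of lower peaks in protein-coding genes between 8.90% and 20.3% for a longest block of at most 200 bases and between 83.4% and 90.5% above 400 bases. Depth is unknown and each peak has 1 value, so the intervals cover the count of peaks only. No paired analysis was possible because the peak lists hold 1 value per peak.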
